A study of Saccharomyces cerevisiae with 8 samples.

Results

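The genes described here are 10 of the 6016 protein-coding genes in a table of yeast RNA-seq and ribosome footprint reads. They were chosen by name as genes of the a mating type and genes that mating pheromone induces, namely MFA1, MFA2, STE6, STE2, BAR1, AGA1, AGA2, STE12, KAR4 and FUS1, and all 10 had a row and passed the filter on low counts in each comparison. The cells were haploid Saccharomyces cerevisiae of strain BY4741, a laboratory strain of mating type a. All carried the reporter mCherry(K14UAG), a red fluorescent protein gene interrupted by a UAG stop codon, and expressed guide RNAs that direct the isomerisation of single uridines to pseudouridine (Ψ). Targeted cells expressed PTC(K14ΨAG)-gRNA, directed at that stop codon, together with tRNA_Lys(CUΨ36)-gRNA, directed at the anticodon of a lysine tRNA, and control cells expressed control guide RNAs. Cells grew in synthetic dextrose medium lacking leucine and uracil and were harvested at mid-log phase, and no pheromone treatment is named in the labels. Each of the 4 groups (RNA or footprints, control or targeted guides) held 2 libraries, and the labels do not say whether these came from separate cultures, so p-values reflect only how far these samples spread, which may be technical variation.

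Haploid yeast cells of opposite mating types find each other with peptide pheromones. An a cell secretes a-factor and carries a receptor for alpha-factor, which signals through a G protein and a MAP kinase cascade to the transcription factor Ste12, and Ste12 raises the genes for arrest, agglutination and cell fusion. The a-specific genes are on in a cells without any partner, held there by the factor Mcm1, and are switched off by the alpha2 repressor in alpha cells and diploids.

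Summed counts ranged from 21073013 to 61908589 reads in RNA and from 8080039 to 15253540 in footprints, of which the 10 genes held 0.0739 to 0.0850% and 0.197 to 0.215%. The lowest member had 225 RNA reads in targeted replicate 2 (KAR4) and 192 footprint reads in control replicate 2 (FUS1), so every value of the 10 genes rests on at least that many reads. The 91 transposon rows held 69.8 to 72.9% of the RNA counts, a share that enters the deposited RPKM (reads scaled to coding length and to the library total). On that RPKM scale both targeted libraries were below both control libraries for 33.6% of 5616 genes in RNA and above them for 4.45%. In footprints these shares were 31.7% and 7.16%. Differences between guides are therefore given in normalised CPM (counts scaled to library size, with TMM factors from edgeR), and RPKM serves to compare levels between genes.

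The mating type of the cells was checked first against genes of the opposite type. MF(ALPHA)1 and MF(ALPHA)2, which encode alpha-factor, had 0 to 8 and 0 to 3 reads in any library. STE3, the receptor for a-factor, had an RNA level of 0.759 to 1.24 RPKM, and SAG1, the alpha agglutinin, 4.19 to 5.30 RPKM. The row of MATALPHA1, an activator of alpha-specific genes, held 0 to 14 reads per library and the same counts as HMLALPHA1, its copy at the silent cassette. The rows of MATALPHA2 and HMLALPHA2, the alpha2 repressor, also held the same counts as each other, with 185 to 614 RNA reads (13.6 to 15.6 RPKM) and 68 to 129 footprint reads. HMRA2, the a2 row, had 16.5 to 19.3 RNA RPKM. The alpha2 and a2 frames share sequence, so reads of these rows cannot be assigned to one of them, and the alpha2 rows do not check the mating type. AFB1, an alpha-specific barrier against a-factor, stood at 4.92 to 6.60 RNA RPKM, and the a-specific ASG7 at 8.07 to 10.8. HMRA1, whose sequence is shared by the silent cassette and the expressed a1 gene of an a cell, had 30.1 to 35.6 RNA RPKM. The defining secreted product of alpha cells was thus near 0 in all 8 libraries, control and targeted. The alpha-specific SAG1 and AFB1 were detected, with 222 to 545 and 75 to 249 RNA reads per library.

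The a-factor genes stood far above the rest of the group in both assays. MFA1, on chromosome 4 at 1385176 to 1385286 (R64), and MFA2, on chromosome 14 at 352414 to 352530, encode precursors of the same mature lipopeptide in reading frames of 111 and 117 bases. MFA1 RNA was at 661 and 641 RPKM in control cells, against 593 and 455 in targeted cells. MFA2 RNA was at 585 and 577 RPKM in control cells, against 545 and 487 in targeted cells. In normalised CPM, the scale used for differences between guides, the RNA groups of both genes overlapped. In control cells they ranked 168 and 188 among 6016 genes by RNA RPKM, and 78 and 93 by footprint RPKM. MFA1 exceeded MFA2 in 3 of 4 RNA libraries and 3 of 4 footprint libraries, and the ranges over all 4 libraries overlapped. In the control RNA libraries alone MFA1 was higher, by 1.13-fold and 1.11-fold. The exception in both assays was targeted replicate 2, with MFA1 over MFA2 at 0.934 in RNA and 0.946 in footprints. Reads from stretches that the 2 genes share could be assigned to either, and how such reads were counted is not given in the sources used here.

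Below them in RNA came the receptor STE2 with a mean over the 4 libraries of 161 RPKM, then the agglutinin subunit AGA2 with 83.7 and the secreted protease BAR1 with 65.2. STE2, a receptor with membrane-spanning helices that binds alpha-factor, was higher than AGA2 in all 4 RNA libraries with no overlap of ranges. BAR1, which degrades alpha-factor outside the cell, overlapped AGA2 in range but was lower in each library. STE6, the membrane pump that exports a-factor, had a mean of 41.7 RPKM, and AGA1, the wall-anchored agglutinin subunit, 39.8. These neighbours could not be ordered, since STE6 was higher in 2 of the 4 RNA libraries and lower in the others. The lowest 3 were the transcription factor STE12 with 15.1, KAR4, a factor for karyogamy genes, with 11.1, and FUS1, a membrane protein of cell fusion, with 8.33, each separated from the next in every RNA library.

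Footprints kept most of this order, with means of 2559 RPKM for MFA1, 2484 for MFA2, 420 for STE2, 269 for AGA2, 182 for BAR1, 64.2 for AGA1 and 63.4 for STE6. KAR4, at 31.2, lay above STE12, at 20.6, in all 4 footprint libraries, the reverse of their RNA. FUS1 was again lowest at 15.4. AGA2 and AGA1 are the subunits of one cell-surface adhesin, joined by disulfide bonds, and AGA2 exceeded AGA1 by 1.87-fold to 2.50-fold in RNA RPKM and 3.996-fold to 4.73-fold in footprint RPKM across libraries.

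**Figure D1:**
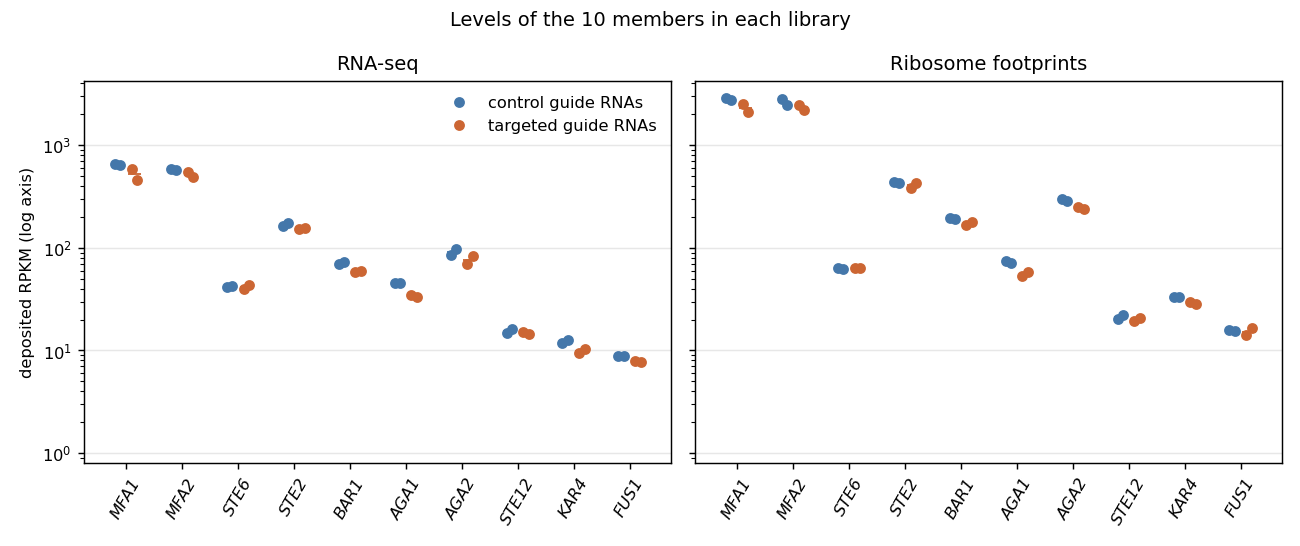
Deposited RPKM (log axis) of each member in the 2 control (blue) and 2 targeted (orange) libraries, for RNA-seq on the left and ribosome footprints on the right, with a short line at each group mean. MFA1 and MFA2 lie at 455 to 661 RPKM in RNA, and FUS1 lies lowest in both assays.

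The first comparison asked whether targeted guides altered the mRNAs of these genes. The genes lay slightly lower as a group, led by AGA1, but none passed the threshold. Of the 10, edgeR called 0 at an adjusted p under 0.05, 3 lay under an unadjusted p of 0.05, limma-voom called 0 and DESeq2 called 1 (AGA1). Over all 5712 genes tested edgeR called 0.368% and 4.46% lay under an unadjusted p of 0.05. The median log2 difference was -0.14 for the 10 genes and 0.00 for all genes tested, and 8 of the 10 lay below 0 against 50% of all genes. Both targeted libraries were below both control libraries for 5 of the 10 (STE2, BAR1, AGA1, FUS1 and KAR4) and for 16.1% of all genes.

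AGA1, on chromosome 14 at 703699 to 705876, had 102 and 94.1 normalised RNA CPM in control cells, against 77.4 and 76.5 in targeted cells. Both targeted libraries were below both control libraries, with the targeted pair closer to each other than the control pair. The log2 difference was -0.35 ± 0.07 (SE), or 0.784 of the control level, with an edgeR adjusted p of 0.0971 and an unadjusted p of 0.000516. AGA1 was called lower in 4 of 13 alternative fits. DESeq2 gave log2 -0.35 (adjusted p of 0.0180), and a filter of 10 CPM in 2 libraries gave -0.36 (edgeR adjusted p of 0.0438). Library size as the only scaling gave -0.42 (edgeR adjusted p of 0.0411), in a fit where the median of all genes was -0.07. A crossed replicate block, added after seeing the data, put AGA1 at -0.35 (edgeR adjusted p of 0.000123). Over all 13 alternative fits its log2 difference ran from -0.42 to -0.29 and its adjusted p from 0.000123 to 0.995. Its partner AGA2, on chromosome 7, had 23.1 and 24.0 normalised RNA CPM in control cells, against 19.0 and 23.2 in targeted cells. Those groups touched, with targeted replicate 2 inside the control range, and the log2 difference was -0.17 ± 0.09 with an edgeR adjusted p of 0.973.

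For the pheromone itself, MFA1 had 75.0 and 66.9 normalised RNA CPM in control cells, against 67.6 and 53.7 in targeted cells. The low value was targeted replicate 2, and targeted replicate 1 lay inside the control range. The log2 difference of -0.22 ± 0.10 (edgeR adjusted p of 0.973) became -0.07 without targeted replicate 2 and -0.41 without targeted replicate 1. MFA2 had 69.9 and 63.6 in control cells, against 65.6 and 60.6 in targeted cells, overlapping groups with a log2 difference of -0.08 ± 0.07.

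STE6, the exporter of a-factor, had 164 and 154 normalised RNA CPM in control cells, against 159 and 177 in targeted cells, with a log2 difference of 0.08 ± 0.08. It was the highest difference of the 10 and the groups overlapped. STE2 had 214 and 215 in control cells, against 202 and 212 in targeted cells, and its log2 difference was -0.05 ± 0.07. BAR1 had 125 and 121 in control cells, against 106 and 113 in targeted cells, a non-overlapping difference of -0.17 ± 0.07 on the log2 scale with an unadjusted p of 0.0291 (edgeR adjusted p of 0.973). The targeted values of STE2 were also both lower, by a margin smaller than the spread of its targeted pair. Neither gene passed the threshold, and in footprints both overlapped between groups.

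Among the nuclear factors, STE12 was the steadiest gene of the group, with 31.4 and 31.7 normalised RNA CPM in control cells, against 31.9 and 31.6 in targeted cells and a log2 difference of 0.01 ± 0.06. KAR4, which acts with Ste12 on genes of nuclear fusion, had 12.1 in both control libraries and 9.77 and 11.1 in targeted cells, a log2 difference of -0.22 ± 0.10 with an unadjusted p of 0.0486 (edgeR adjusted p of 0.973). FUS1, a textbook reporter of the pathway, had 13.98 and 12.8 in control cells and 12.5 in both targeted libraries, and its log2 difference was -0.10 ± 0.09. KAR4 and FUS1 did not overlap between groups, while STE12 did.

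The second comparison asked the same of ribosome footprints. Again AGA1 lay furthest below 0 and no member passed. Of the 10, edgeR, DESeq2 and limma-voom each called 0, with 3 under an unadjusted p of 0.05 by edgeR, while edgeR called 0.586% of all 5461 genes tested and 4.54% lay under that unadjusted p. The median log2 difference was -0.09, against 0.00 for all genes tested, with 8 of 10 below 0 against 50.6%. Both targeted libraries were below both controls for 4 of the 10 (MFA1, AGA1, AGA2 and KAR4), against 15.2% of all genes, and above them for 1 (STE6), against 16.1%.

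AGA1 had 165 and 152 normalised footprint CPM in control cells, against 121 and 135 in targeted cells. The groups did not overlap, and the log2 difference was -0.31 ± 0.08 with an unadjusted p of 0.00318 (edgeR adjusted p of 0.310). Its log2 values ran from -0.39, without targeted replicate 2, to -0.23 over all 13 alternative fits. No fit to all libraries called it. AGA2 had 80.8 and 73.5 in control cells, against 69.2 and 67.6 in targeted cells, a log2 difference of -0.18 ± 0.08 with an edgeR adjusted p of 0.999.

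MFA1 had 323 and 300 normalised footprint CPM in control cells, against 293 and 247 in targeted cells. The low library was again targeted replicate 2, and the log2 difference of -0.21 ± 0.09 had an edgeR adjusted p of 0.999. Without targeted replicate 1 it was -0.33, and without targeted replicate 2 it was -0.09, each from a single targeted library. No fit to all libraries called MFA1. MFA2 had 334 and 281 in control cells, against 301 and 276 in targeted cells, which overlapped, with a log2 difference of -0.09 ± 0.09.

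Of the remaining members, KAR4 had 34.4 and 33.2 normalised footprint CPM in control cells, against 31.0 and 30.4 in targeted cells, a log2 difference of -0.14 ± 0.09. STE6 had 252.7 and 238.8 in control cells, against 253.2 and 262.9 in targeted cells, a log2 difference of 0.07 ± 0.07. It was the 1 member whose targeted values were both higher. That margin was smaller than the spread of either pair, and in RPKM the groups overlapped. BAR1, at -0.09 ± 0.07, STE2, at -0.03 ± 0.08, STE12, at -0.02 ± 0.09, and FUS1, at 0.03 ± 0.11, all overlapped between groups in footprints. FUS1 took either sign when single libraries were left out, from -0.10 to 0.15. So did STE2 (-0.11 to 0.06), STE12 (-0.09 to 0.04) and MFA2 (-0.21 to 0.04).

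**Figure D2:**
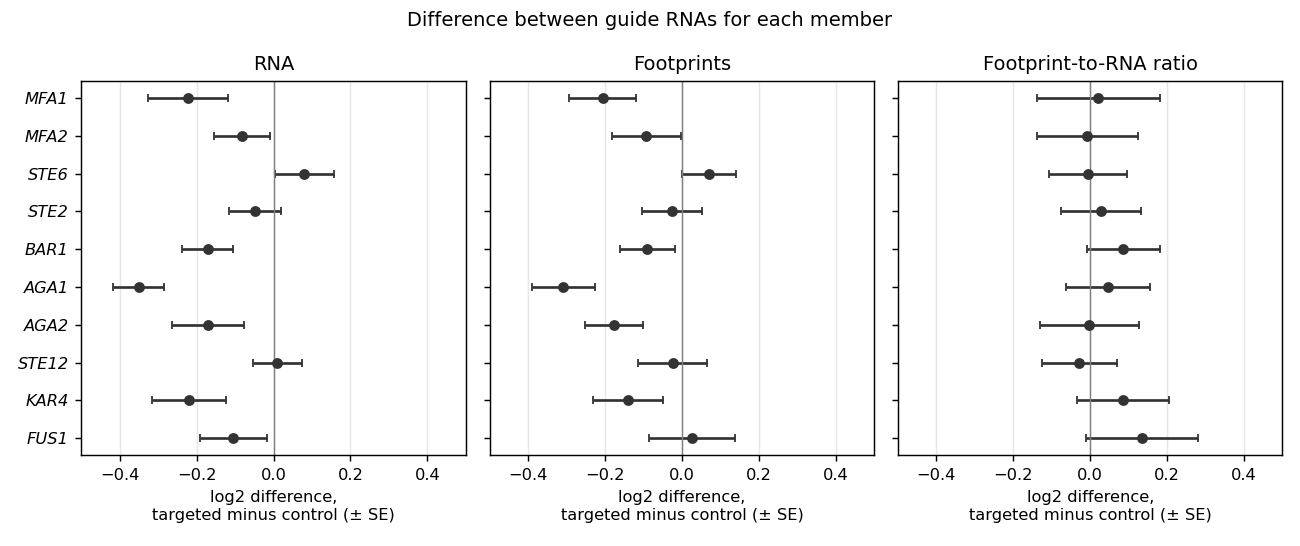
Log2 difference (targeted minus control, point, with SE as bars) of each member in RNA, in footprints and in the footprint-to-RNA ratio, from edgeR fits across all genes. AGA1 is at -0.35 in RNA and -0.31 in footprints, and every ratio difference lies between -0.03 and 0.13.

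The third comparison asked how dense footprints were relative to RNA reads over each coding sequence. This ratio of RPKM is a density per base and does not count footprints per mRNA. In control cells it was highest for the a-factor genes and lowest for STE12. In the authors' deposited table the ratio of footprint to RNA RPKM was 4.32 and 4.28 for MFA1 and 4.79 and 4.22 for MFA2 in control cells, against medians of 1.98 and 1.88 over 5616 genes. In the authors' deposited table AGA2 had 3.51 and 2.93, KAR4 2.85 and 2.63, BAR1 2.79 and 2.62, and STE2 2.72 and 2.43, all above those medians. In the authors' deposited table FUS1 had 1.78 and 1.73, AGA1 1.62 and 1.54, STE6 1.55 and 1.48, and STE12 1.36 in both libraries, all below those medians. The proteins of the first set are small secreted or surface products, a receptor, a protease and a factor for nuclear fusion, and the second holds the pump, the anchored agglutinin subunit, the fusion protein and the main transcription factor.

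Against the TMM-scaled average gene, edgeR called 6 of the 10 higher and 3 lower in control cells, where it called 35.6% of 5665 genes higher and 38.1% lower. MFA2 was at log2 1.20 ± 0.09 (edgeR adjusted p of 8.21e-07) and MFA1 at 1.13 ± 0.11 (5.54e-06), values above those of 97.5% and 96.6% of the genes tested. AGA2 was at 0.71 ± 0.09, KAR4 at 0.48 ± 0.08, BAR1 at 0.46 ± 0.07 and STE2 at 0.39 ± 0.07, with edgeR adjusted p from 3.06e-05 to 0.000665. STE12 was at -0.53 ± 0.07, STE6 at -0.38 ± 0.07 and AGA1 at -0.31 ± 0.08, with edgeR adjusted p from 4.30e-05 to 0.00326, and FUS1 at -0.16 ± 0.10 was not called (0.179). STE2 lost its call without control replicate 1 (0.34, edgeR adjusted p of 0.0536). The zero of this scale depends on the scaling. With library size alone the median of all genes moved from -0.02 to 0.95, and STE12, STE6, AGA1 and FUS1 changed sign. All 10 members were called higher in that fit. The same fit called 4870 genes in all, most of them higher, so the 10 calls do not set the members apart. Only values relative to the median of all genes therefore compare genes.

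Targeted cells gave the same split, with 6 members called higher and 3 lower by edgeR, against 36.3% and 37.9% of all genes. MFA2 was at 1.19 ± 0.09, MFA1 at 1.15 ± 0.12 and STE12 at -0.56 ± 0.07. AGA1, at -0.27 ± 0.08, lost its call without targeted replicate 1 (-0.17, edgeR adjusted p of 0.124). In the authors' deposited table the targeted ratios ran from 1.28 for STE12 in replicate 1 to 4.61 for MFA1 in replicate 2. FUS1 was at 1.78 and 2.14 there, the second above both of its control values.

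The ratio followed coding length across the 10 genes. The frames run from 111 bases in MFA1 to 3873 in STE6, and the log2 of the authors' deposited control ratio had a Pearson r of -0.900 and a Spearman rho of -0.915 with log2 length over 10 genes, as a description with no test. Over the 5616 genes with at least 100 reads summed over all libraries the same values were -0.274 and -0.530. All points share the same libraries, and the part of length in the high values of MFA1, MFA2 and AGA2 was not tested.

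**Figure D3:**
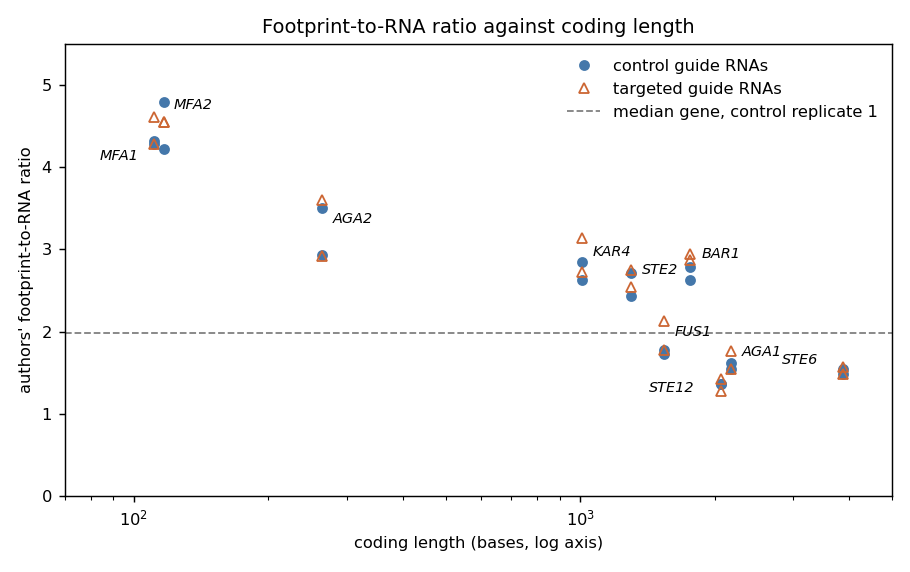
The authors' deposited footprint-to-RNA ratio of each member against coding length (log axis), with control libraries as filled circles, targeted libraries as open triangles and the median gene of control replicate 1 as a dashed line at 1.98. MFA1 and MFA2 lie at 4.22 or higher and STE6, the longest, at 1.48 to 1.57.

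The last comparison of the members asked whether the ratio differed between guides. No member differed detectably: the log2 change ran from -0.03 ± 0.10 for STE12 to 0.13 ± 0.15 for FUS1, with a median of 0.02 against 0.01 for all genes. By edgeR 0 of the 10 were called and 0 lay under an unadjusted p of 0.05, DESeq2 and limma-voom called 0, and edgeR called 0% of the 5665 genes tested, with 1.85% under that unadjusted p. AGA1, the member with the largest RNA and footprint differences, had a ratio change of 0.05 ± 0.11. With each lysate fitted as a block over its RNA and footprint libraries, edgeR called 6 genes in all and 0 of the members.

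The rest of the pathway was described by lists. Of 20 signalling genes, 0 were called in RNA and 0 in footprints by edgeR (1 and 0 under an unadjusted p of 0.05), with medians of -0.05 and -0.03. The lowest RNA p was that of BEM1, a polarity scaffold, at -0.18 ± 0.08 (unadjusted p of 0.0447), followed by the kinase STE11 at -0.21 ± 0.11. In footprints FAR1, which links pheromone to cell cycle arrest, was at -0.16 ± 0.08, and TEC1, a partner of Ste12, at -0.12 ± 0.08. Of 16 other pheromone-induced genes, 15 were tested in RNA and 13 in footprints with 0 called by edgeR (0 and 1 under an unadjusted p of 0.05), and medians were -0.10 and -0.07. FIG2, a mating adhesin, was at -0.38 ± 0.15 in footprints (unadjusted p of 0.0302). FIG1, a membrane protein of mating, was at -0.54 ± 0.36 in RNA and -0.72 ± 0.37 in footprints. These values rest on only 7 to 43 RNA reads and 15 to 29 footprint reads per library. PRM1, of membrane fusion, was at -0.21 ± 0.11 in RNA.

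Genes that process the a-factor precursor showed no shared direction, with 5 of 7 below 0 in RNA and 2 of 7 in footprints and 0 called in either by edgeR (0 under an unadjusted p of 0.05 in both). RCE1, a protease acting after prenylation, was at -0.19 ± 0.13 in RNA, and RAM2, a subunit of the farnesyltransferase, at -0.06 ± 0.07. In footprints STE23, a protease, was at 0.12 ± 0.07 and STE14, the methyltransferase, at -0.14 ± 0.09. The further a-specific gene ASG7 was at -0.17 ± 0.11 in RNA and -0.03 ± 0.10 in footprints. The alpha-specific AFB1 was at -0.22 ± 0.13 in RNA and -0.21 ± 0.16 in footprints. Of 9 haploid-specific genes, 6 of which also belong to the signalling list, 6 lay below 0 in RNA and 3 in footprints with medians of -0.04 and 0.00, and 0 were called by edgeR in either (0 under an unadjusted p of 0.05). HO, the mating type endonuclease, was at 0.10 ± 0.07 in RNA, and NEJ1, of DNA end joining, at 0.22 ± 0.15 in footprints. FAR1, which is in both lists, was at -0.07 ± 0.06 in RNA and -0.16 ± 0.08 in footprints. Of the other alpha-specific genes, SAG1 and STE3 passed the filter. They were at 0.07 ± 0.13 and -0.03 ± 0.25 in RNA and -0.56 ± 0.30 and -0.53 ± 0.34 in footprints, from 27 to 41 footprint reads per library.

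**Figure D4:**
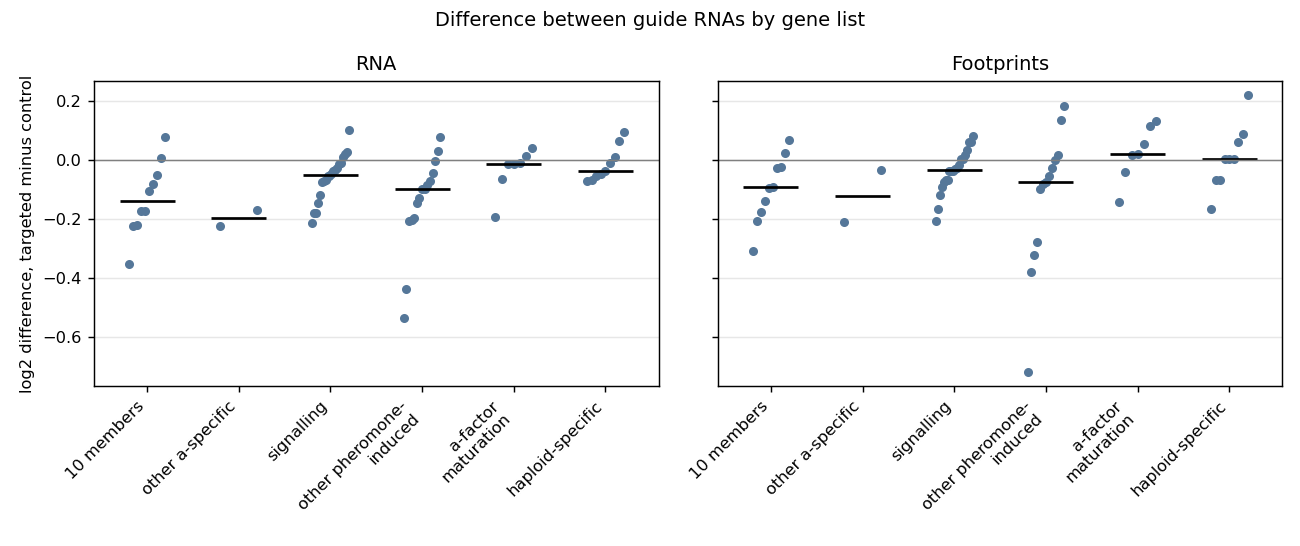
Log2 difference (targeted minus control) of each tested gene in 6 lists, for RNA on the left and footprints on the right, with a line at the list median. The list labelled other a-specific holds ASG7 and AFB1, of which AFB1 is alpha-specific. The medians lie at -0.14 in RNA and -0.09 in footprints for the 10 members and at -0.05 and -0.03 for the signalling genes, and edgeR called no gene shown, while DESeq2 called AGA1 lower in RNA.

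The 3 genes outside these lists whose pattern over the 8 libraries was most like the mean of the 10 members were FAS2, a fatty acid synthase subunit, with a Pearson r of 0.967, LEU2, of leucine synthesis, with 0.956, and YPT1, a Rab GTPase, with 0.948. These are values of log2 CPM centred within each assay, the highest of 3390 genes compared, of which 7 exceeded an r of 0.9. LEU2 is absent from the chromosome of BY4741 and often serves as a plasmid marker. All points share libraries, so this likeness is a description only.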

How the data were processed

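RNA-seq and ribosome footprint reads came from 1 table of 6016 genes, in which every library has its own columns. Per the labels' protocols, RNase I digestion of the lysates took 45 min, fragments of 25 to 33 nt were kept as footprints, and rRNA was depleted from RNA of the same lysate. Build R64, cutadapt and STAR are named, per the submitters' processing notes. How reads were counted, with what strand setting and rule for multiple mapping, is not given in the sources used here. Values deposited by the authors are whole-read counts, RPKM and ratios. The authors' RPKM use coding length and a library total slightly above the summed counts. The authors' ratio is footprint RPKM plus 0.01 over RNA RPKM plus 0.01, to within 1 percent for at least 99.668% of genes in each pair.

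The test on counts of all genes was the quasi-likelihood test of edgeR 4.0.16, run under R 4.3.3 (TMM, filterByExpr, Benjamini-Hochberg over all genes, threshold 0.05, two-sided). RNA and footprints were fitted in their own 4 libraries, and ratios and their change in all 8. SE is the log2 value over the square root of F. Alternatives were DESeq2 1.42.0, limma-voom (limma 3.58.1), other scalings and filters, a replicate block, and leaving out transposon rows or each replicate. The script was tested on simulated data. Per the labels' protocols, same-numbered RNA and footprint libraries share a lysate, and over 3438 genes their deviations had an r of 0.437 (control) and 0.534 (targeted). Replicate pairs differed by more than sampling noise (chi-square per degree of freedom 3.02 to 9.97 without transposon rows). Named were all members, and of each other list the 2 genes with the smallest p. Members and lists were chosen with earlier results of these data known. No sequences were used here.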

Additional observations from a re-analysis of the deposited data

How the results depend on the processing

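The count of called members in RNA was 0 in the edgeR fit and 1 (AGA1, lower) with library size only, with DESeq2, and with at least 10 CPM in 2 libraries; it was 0 in each fit without a replicate. In footprints the count was 0 and ranged from 0 to 1 without single replicates (MFA1 or AGA1, lower). The ratio counts of 9 ranged from 8 to 9 without single replicates, and the change of the ratio had 0 members in each fit. With library size only, the ratios of STE6, STE12, AGA1 and FUS1 became 0.59, 0.44, 0.66 and 0.81 (control) or 0.65, 0.47, 0.76 and 1.004 (targeted), because the median of all genes moved to 0.95 and 1.02. With at least 10 CPM in 2 libraries FUS1 was called lower in control cells (-0.28, edgeR adjusted p of 0.0372).

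Over all genes the edgeR calls went from 21 in RNA to between 0 (without control replicate 1) and 21 without single replicates, and to 13 without transposon rows, and from 32 in footprints to as many as 159 without targeted replicate 1, 85 without targeted replicate 2, 53 without control replicate 1, 60 with the number as a replicate block and 20 with library size only. The change of the ratio had 0 called genes, 2 without targeted replicate 2 and 6 with the lysate as a replicate block. The replicate block changed no call of a member, with AGA1 at -0.35 in RNA (edgeR adjusted p of 0.137) and -0.31 in footprints (0.0631). Same-numbered control and targeted libraries deviated with r of -0.180 in RNA and -0.0825 in footprints; a crossed replicate block, added after seeing the data, gave 71 called genes in RNA, 1 of them a member (AGA1). Groups of 2 allow no test of single outlying libraries.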

Other observations

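Several mating genes outside the 10 had mRNA reads but few footprints. FIG2, an adhesin of mating cells on chromosome 3 at 267434 to 272263 (R64), had 823 to 2391 RNA reads and 84 to 139 footprint reads per library, and a control ratio of log2 -2.76 ± 0.10 (SE, edgeR adjusted p of 6.64e-09). SAG1, the agglutinin of alpha cells, had 222 to 545 RNA reads and 29 to 41 footprint reads, with a control ratio of -2.38 ± 0.20 (1.30e-06). PRM10, a pheromone-regulated membrane protein gene, had 58 to 190 RNA reads and 0 to 3 footprint reads; its row overlaps YJL107C on the same strand, so reads may be shared. Neither FIG2 nor SAG1 overlaps another gene in the RefSeq table, and whether their RNA reads come from the coding strand was not tested. These 3 genes were named for the smallest p in their lists. For comparison, AGA1, the agglutinin subunit of a cells, stood at -0.31 ± 0.08 on the same scale.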
